A study of Mus musculus with 4 samples.

Results

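Core and linker histone genes were followed in hepatocyte preparations from HepKO mice, whose label is a liver-specific knockout of Pnpt1, and from their wild-type (WT) partners. PNPase, its product, degrades RNA from the 3′ end and sits mainly in mitochondria. The members are all genes with a probe whose RefSeq accession belongs to a mouse histone gene, by current symbol or by older name. They came to 43 genes with 55 probes, out of 16358 named genes and 41174 probes on the array. Of these, 31 genes with 36 probes are replication-dependent and 12 genes with 19 probes are variant genes. In all, 37 genes with 49 probes passed the filter on dim probes and were tested.

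Histones are the proteins around which DNA is wound. The core histones H2A, H2B, H3 and H4 form the nucleosome, and linker histone H1 binds the DNA between nucleosomes. Replication-dependent histone genes lie in clusters of near-identical copies, are transcribed mostly in S phase, and give mRNAs that end in a stem-loop instead of a poly(A) tail. Variant genes are transcribed throughout the cell cycle, and most give polyadenylated mRNAs, so that in a quiescent tissue such as adult liver they supply much of the newly made histone. The labelling kit named in the protocols, Agilent Low RNA Input Linear Amplification, primes on poly(A) tails. The signal of a replication-dependent gene may therefore come from polyadenylated copies of its mRNA, and the share of transcripts captured was not tested.

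The RNA came from 4 C57BL/6J mice and was hybridised to 4 Agilent arrays in 2 colours. The HepKO mice carried Albumin-Cre, which acts in hepatocytes, on 1 allele and floxed Pnpt1 on both, and the WT mice had the same floxed alleles but no Cre. One HepKO male and its WT partner were 12.29 weeks old by the characteristics, although other labels of that pair give another age, and one HepKO female and its WT partner were 4.29 weeks old. Partners were matched for litter, and each pair was hybridised on 2 arrays with HepKO in Cy5 on replicate 1 and in Cy3 on replicate 2. Both arrays of a pair hold the same RNA extracts, so n = 2 pairs. The pairs differ in sex, age and slide at once, and these cannot be told apart. Livers were perfused with collagenase and the cells pelleted, and no sort for hepatocytes is named.

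The labelled sexes went against the data. In HepKO and in WT alike, Xist was detected above background on 2 of 2 male-labelled arrays and on 0 of 2 female-labelled ones. Ddx3y, Eif2s3y and Kdm5d, on the Y chromosome, showed the reverse. Both pairs are called here as labelled, and each ratio compares partners of the same pair. The brighter probe of the targeted gene, Pnpt1, had a log2 ratio of -0.099 ± 0.19 and the dimmer one -0.52 ± 0.13 (limma adjusted p over all probes 0.747 and 0.0800), and the position of these probes relative to the deleted part is not stated in the labels. All 15 measured hepatocyte markers were well above background on all 4 arrays in both genotypes. Between 48.2% and 58.6% of all probes were above background, depending on array and channel.

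Below, a ratio is log2 HepKO over WT after loess normalization, as the mean of the 2 pairs ± the moderated standard error of limma. Adjusted p-values are from limma over all 11495 named genes measured, and a gene rose or fell where this p was under 0.05. Intensities are normalized spot signals per mouse, averaged over both dye orientations and given as HepKO male and female, against WT male and female. They compare 1 probe between mice and never 2 probes.

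In HepKO hepatocyte preparations 16 of 37 measured histone genes rose, among them all 5 H4 genes, 3 of 5 replication-dependent linker H1 genes, H2ax and H3f3b. Of the 37 measured genes 16 rose (43.2%) and 1 fell, beside 12% of all named genes that rose and 3.71% that fell. The median ratio of the 37 was 1.24, against 0.083 over all genes measured. Among 28 replication-dependent genes 13 rose and 1 fell (median 1.35), and among 9 variant genes 3 rose and none fell (median 0.41). One of these 3, H1f10, passed the filter on dim probes through its HepKO signal alone. Ratios were above 0 on all 4 arrays for 29 of the 37, below 0 on all 4 for 3, and of mixed sign for 5. Of all genes measured, 39.4% were above 0 on every array and 25% below. Both HepKO mice were brighter than both WT mice for 29 members and dimmer for 2, beside 41.9% and 26.8% of all genes.

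These calls lie close to the threshold. Only 9 histone genes passed without male pair replicate 2, where H1f1 (adjusted p = 0.0618), H1f10 (0.0562), H2ac10 (0.0623), H4c1 (0.0767), H4c6 (0.0529), H4c14 (0.0596) and H4f16 (0.0731) lost theirs, and 11 passed without female pair replicate 1, where H1f1 (0.0549), H2ac10 (0.0561), H4c1 (0.0689), H4c14 (0.0556) and H4f16 (0.0646) did. With normexp fitted on all spots, or with no filter on dim probes, no gene of the array passed in limma, while 21 histone genes were higher at an unadjusted p under 0.05 in each of these settings. All 16 stayed above 0 under every setting that tested them, which left out some settings for H1f10 (tested in 14), H2ax (15) and H4c6 (15).

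**Figure D1:**
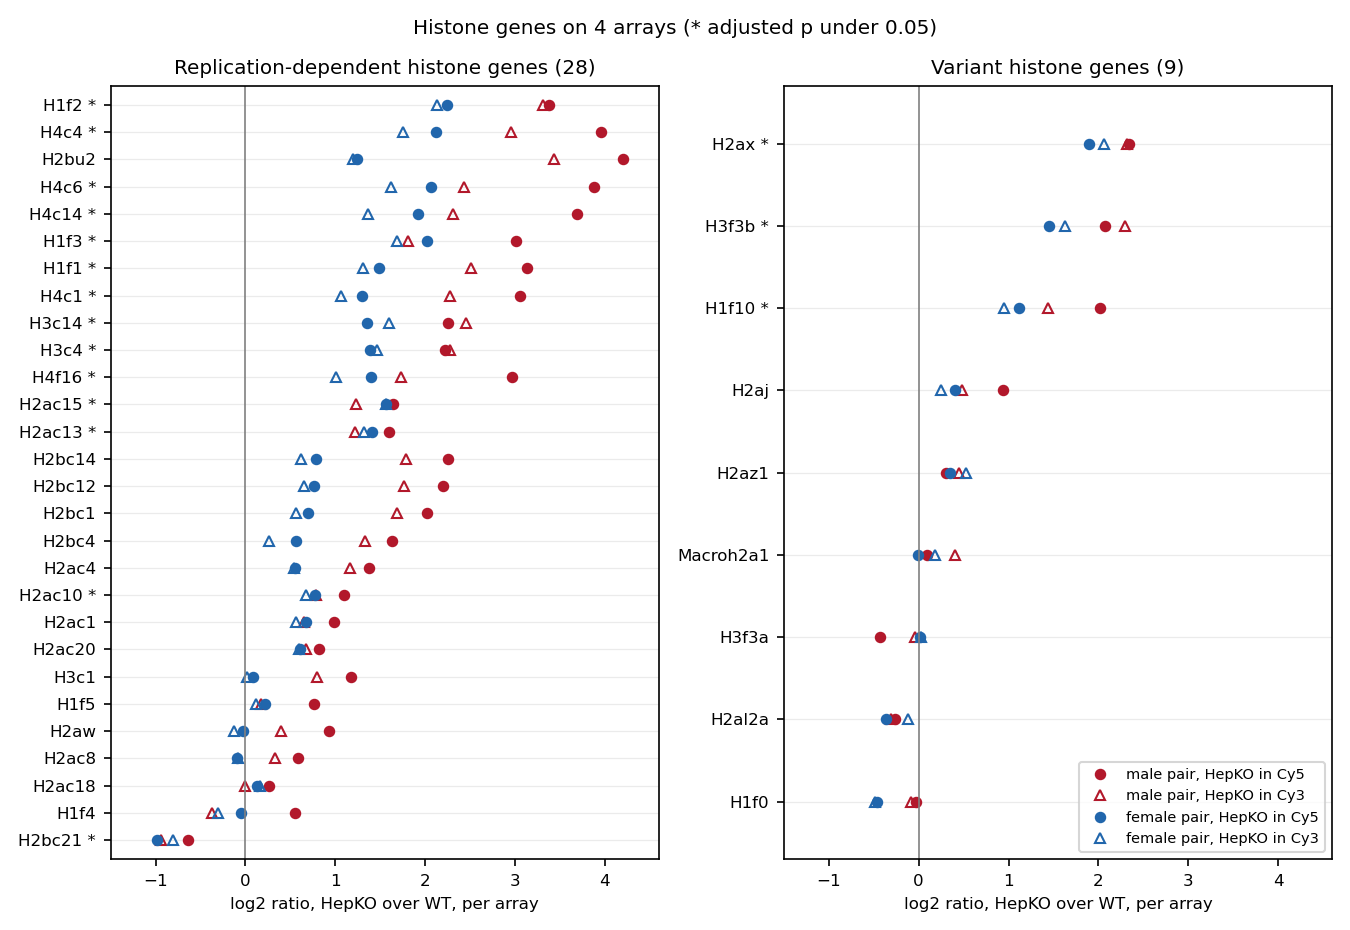
Log2 ratio of HepKO over WT (x axis) of each measured histone gene (rows) on each of the 4 arrays, with replication-dependent genes on the left and variant genes on the right; colour marks the pair, filled circles the arrays with HepKO in Cy5 and open triangles those with HepKO in Cy3. An asterisk marks an adjusted p under 0.05. Most replication-dependent genes lie right of 0 with the male pair furthest right, while H3f3a and H1f0 lie at or left of 0.

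All 5 measured H4 genes rose, H4c1 close to the threshold. H4 forms the core of the nucleosome together with H3, and its gene copies encode the same protein. H4c4 (Hist1h4d) had an intensity of 12536 and 3808 in HepKO, against 1141 and 994 in WT. Its ratio was 3.96 and 2.96 in 1 pair (male) and 2.12 and 1.76 in the other (female), with a mean of 2.70 ± 0.40 (adjusted p = 0.0279). Both HepKO mice were above both WT mice, and the HepKO male was more than 3 times as bright as the HepKO female. A second, dimmer H4c4 probe had 1.06 and was not called (adjusted p = 0.1096 over all probes), and it stood for the gene when background population outliers were left out too (1.07, adjusted p = 0.0990).

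H4c6 (Hist1h4f) had 14792 and 4358 in HepKO, against 1664 and 1213 in WT, a mean ratio of 2.50 ± 0.35 (adjusted p = 0.0258). Its ratios were 3.88 and 2.43 in the male pair, so the dye orientations of that pair differed by more than 1 log2 unit, and 2.07 and 1.62 in the female pair. The genotypes did not overlap for this gene. H4c14 (Hist2h4) had 5081 and 1687 in HepKO, against 634 and 539 in WT, with ratios of 3.69, 2.31, 1.92 and 1.37 and a mean of 2.32 ± 0.36. H4c1 (Hist1h4a) had 2575 and 817 in HepKO, against 405 and 361 in WT, with ratios of 3.06, 2.28, 1.297 and 1.07 and a mean of 1.93 ± 0.39 (adjusted p = 0.0486). H4c1 lost its call in 8 of 16 alternative settings, among them the deposited Feature Extraction log ratios (1.99, adjusted p = 0.0626), the authors' value table (1.99, 0.0645) and the mean of all kept probes of a gene (1.93, 0.0558). H4f16 (Hist4h4), which lies apart from the clusters on chromosome 6, had 1132 and 401 in HepKO, against 222 and 175 in WT, with ratios of 2.97, 1.74, 1.39 and 1.00 and a mean of 1.78 ± 0.32. In each of these H4 genes both HepKO mice were above both WT mice.

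Linker histone genes split. H1f2 (Hist1h1c), a linker histone of somatic cells, had the highest mean ratio of the 37 genes in this fit, with 1 probe per gene. With the Feature Extraction log ratios H2bu2 (4.14), H1f10 (3.85) and H1f1 (3.42) lay above its 2.78. Its intensity was 27326 and 8805 in HepKO, against 2683 and 1933 in WT. Its ratios of 3.38 and 3.31 (male pair) and of 2.24 and 2.13 (female pair) gave a mean of 2.77 ± 0.32 (adjusted p = 0.0190), a 6.81-fold difference. The dye orientations of each pair nearly coincided, and the genotypes did not overlap.

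H1f3 (Hist1h1d) had 930 and 377 in HepKO, against 175 and 104 in WT, with ratios of 3.01, 1.81, 2.02 and 1.69 and a mean of 2.13 ± 0.20 (adjusted p = 0.0152). H1f1 (Hist1h1a) had 555 and 242 in HepKO, against 78.4 and 92.1 in WT, with ratios of 3.13, 2.51, 1.48 and 1.304 and a mean of 2.11 ± 0.38, against 3.42 with the Feature Extraction log ratios. Both are somatic linker histones, and both separated the genotypes. H1f4 (Hist1h1e), another somatic linker histone, had 523 and 758 in HepKO, against 491 and 858 in WT, and a ratio of -0.043 ± 0.16 (adjusted p = 0.868). Its genotypes overlapped, and its sign changed between arrays, from -0.37 to 0.55. H1f5 (Hist1h1b) had a ratio of 0.32 ± 0.16 (adjusted p = 0.233).

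Of the 3 measured replication-dependent H3 genes 2 rose. H3c14 (Hist2h3c1) had 49283 and 21524 in HepKO, against 9625 and 7734 in WT, with ratios of 2.26, 2.46, 1.35 and 1.60 and a mean of 1.92 ± 0.26 (adjusted p = 0.0239). H3c4 (Hist1h3d) had 35200 and 15768 in HepKO, against 7418 and 5877 in WT, with ratios of 2.22, 2.27, 1.39 and 1.46 and a mean of 1.84 ± 0.25. Neither gene had overlapping genotypes, and on both the arrays with HepKO in Cy3 gave the larger ratio, unlike on H4 genes. H3c1 (Hist1h3a) passed the filter through its HepKO signal alone and was above background on 2 of 4 WT arrays, with a ratio of 0.52 ± 0.27 (adjusted p = 0.243).

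Among 9 replication-dependent H2A genes 3 rose, with ratios below those of the H4 genes. H2ac15 (Hist1h2ak) had 571 and 782 in HepKO, against 211 and 264 in WT, with ratios of 1.64, 1.24, 1.57 and 1.56 and a mean of 1.50 ± 0.14 (adjusted p = 0.0152). H2ac13 (Hist1h2ai) had 384 and 505 in HepKO, against 145 and 196 in WT, with ratios of 1.59, 1.22, 1.41 and 1.32 and a mean of 1.39 ± 0.14. In H2ac15 and H2ac13 the HepKO female was the brighter HepKO mouse, unlike in the H4 genes. H2ac10 (Hist1h2af) had 24967 and 20331 in HepKO, against 13001 and 12322 in WT, with ratios of 1.10, 0.78, 0.77 and 0.68 and a mean of 0.83 ± 0.15 (adjusted p = 0.0395). H2ac10 lost its call in 7 of 16 alternative settings, among them median centring (0.55, adjusted p = 0.0831), the Feature Extraction log ratios (0.82, 0.0731) and the authors' value table (0.82, 0.0738). The other H2A genes did not pass. They ran from 0.14 ± 0.14 for H2ac18 (Hist2h2aa1) to 0.91 ± 0.23 for H2ac4 (Hist1h2ab), with the testis gene H2ac1 (Hist1h2aa; 0.72 ± 0.15, adjusted p = 0.0505), H2ac20 (0.68 ± 0.15), H2aw (0.29 ± 0.23) and H2ac8 (0.18 ± 0.19) between them. The H2ac1 probe was bright in both genotypes, with 16729 and 14062 in HepKO, against 9464 and 9154 in WT. H2ac4 and H2ac8 passed the filter through HepKO alone, and H2ac4 was called with the Feature Extraction log ratios (2.26, adjusted p = 0.0323).

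None of the 6 measured H2B genes rose in this fit. H2bu2 (Hist3h2ba) had 1322 and 188 in HepKO, against 93.8 and 80.9 in WT. Its ratios of 4.20 and 3.44 (male pair) and of 1.24 and 1.20 (female pair) gave a mean of 2.52 ± 0.66, which did not pass (adjusted p = 0.0765). With the Feature Extraction log ratios it did (4.14, adjusted p = 0.0344). The highest value of any member on 1 array thus belongs to a gene whose pairs differed by more than 2 log2 units. H2bc14 (Hist1h2bm) had 24915 and 11558 in HepKO, against 6141 and 7085 in WT, with ratios of 2.25, 1.79, 0.79 and 0.62 and a mean of 1.36 ± 0.35. H2bc12 (Hist1h2bk) had 2.20, 1.77, 0.76 and 0.65 on the arrays (1.34 ± 0.35), and the testis gene H2bc1 (Hist1h2ba) had 2.02, 1.69, 0.70 and 0.56 (1.24 ± 0.33). H2bc4 (Hist1h2bc) averaged 0.95 ± 0.30. The adjusted p-values of these 4 genes lay between 0.0741 and 0.108. In limma with all 4 arrays and the pair as a random block they lay between 0.0136 and 0.0287. That fit uses 1 correlation for all genes and adds no pair, since both arrays of a pair hold the same extracts. Its lower p-values are therefore no call on n = 2 pairs. In each both HepKO mice were above both WT mice.

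H2bc21 (Hist2h2be), known in mouse for an H2B form of olfactory neurons, was the member that fell. It had 113 and 102 in HepKO, against 195 and 189 in WT. Its ratios were -0.63, -0.94, -0.98 and -0.81, with a mean of -0.84 ± 0.14 (adjusted p = 0.0350). The pairs gave nearly equal values and the genotypes did not overlap. The call was lost without male pair replicate 2 (-0.76, adjusted p = 0.0746), with median centring (-0.67, 0.0589) and when only the Cy5 orientation of HepKO was used (-0.81, 0.0529). The Feature Extraction log ratios gave -1.87 (adjusted p = 0.0186).

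**Figure D2:**
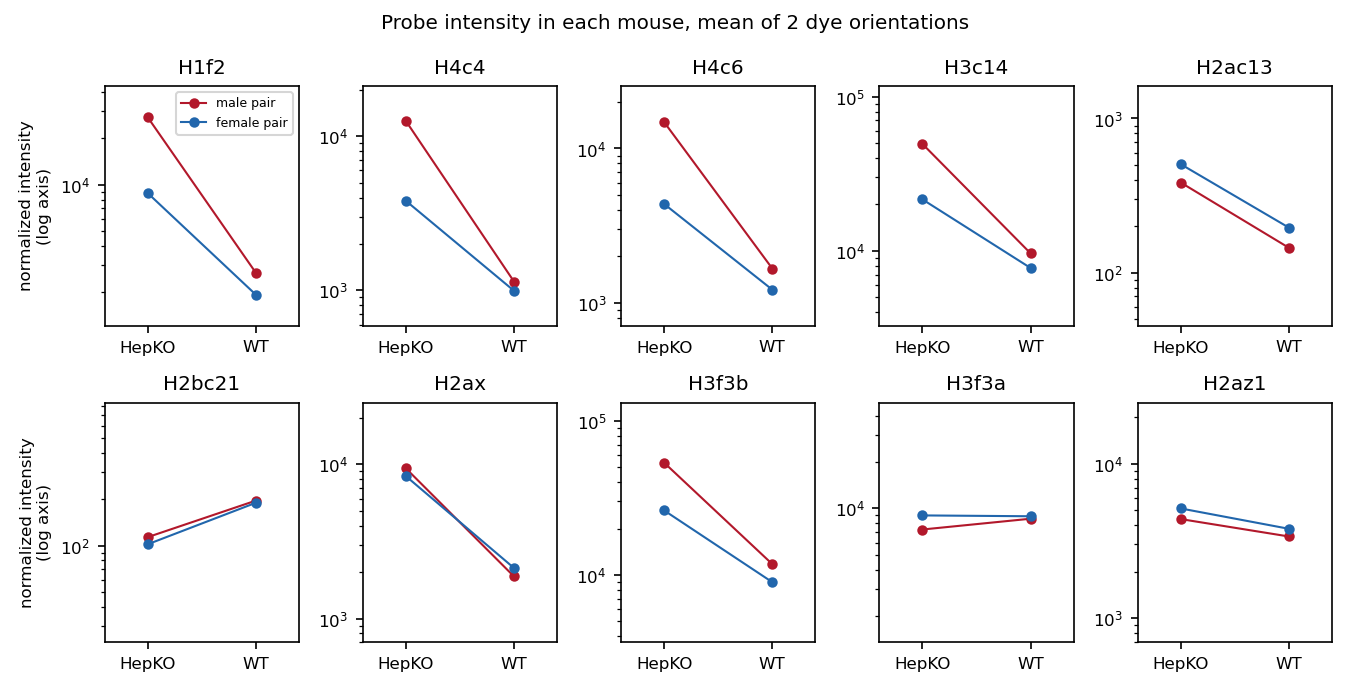
Normalized probe intensity (y axis, log scale, spanning the same number of fold in each panel) in each HepKO mouse and each WT mouse for 10 histone genes; a line joins the partners of a pair. H1f2, H4c4, H4c6, H3c14 and H3f3b are furthest apart in the male pair, H2ax runs alike in both pairs, H2bc21 is lower in HepKO, and H3f3a is nearly level.

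Variant genes rose in 3 of 9 cases. H2ax encodes the H2A form that is phosphorylated around DNA breaks, and its mRNA is made both with a stem-loop and with a poly(A) tail. It had 9407 and 8379 in HepKO, against 1874 and 2125 in WT, with ratios of 2.34, 2.31, 1.90 and 2.06. The mean of 2.15 ± 0.17 (adjusted p = 0.0130) had the smallest p of any member. All 4 arrays lay close together, and the genotypes were 4.45-fold apart.

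H3f3b and H3f3a both encode the replacement histone H3.3, and their ratios lay apart. H3f3b had 53387 and 26173 in HepKO, against 11752 and 8976 in WT, with ratios of 2.07, 2.30, 1.45 and 1.63 and a mean of 1.86 ± 0.21 (adjusted p = 0.0186). H3f3a had 7291 and 8999 in HepKO, against 8565 and 8886 in WT, with a mean of -0.11 ± 0.15 (adjusted p = 0.651). The arrays of H3f3a lay between -0.43 and 0.021, below each value of H3f3b, and its genotypes overlapped. The second H3f3b probe (1.76 ± 0.24) and the other H3f3a probes (-0.055 ± 0.13 and -0.14 ± 0.15) gave the same picture over all probes. The difference between the 2 genes was not itself tested.

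H1f10 (H1fx), a divergent linker histone, had 259 and 163 in HepKO, against 78.0 and 79.4 in WT. Its ratios were 2.02, 1.44, 1.12 and 0.95, and their mean was 1.38 ± 0.22 (adjusted p = 0.0315), but it passed the filter through HepKO alone and was above background on 1 of 4 WT arrays. The Feature Extraction log ratios gave 3.85 for it, and the cause of this gap was not tested. H2az1, which encodes the H2A.Z form found at promoters, had 4380 and 5133 in HepKO, against 3378 and 3789 in WT, and a ratio of 0.41 ± 0.14 (adjusted p = 0.128). H2aj had a ratio of 0.52 ± 0.17 and Macroh2a1, a form found in silent chromatin, 0.17 ± 0.15. H1f0, the linker histone of differentiated cells, had 5390 and 3635 in HepKO, against 5615 and 5052 in WT, and a ratio of -0.27 ± 0.17 (adjusted p = 0.332). Its dimmer probes gave -0.64 ± 0.13 and -0.72 ± 0.12, the second with an adjusted p of 0.0493 over all probes. H2al2a, a testis gene, had a ratio of -0.26 ± 0.14 (adjusted p = 0.258), but was called lower with the Feature Extraction log ratios (-1.46, 0.0250) and the authors' value table (-1.46, 0.0259). The remaining 6 members were not measured: H1f6, H1f7 and H1f8, which act in germ cells, H2ac6, H2bc6 and Macroh2a2. They were well above background on at most 1 of 4 arrays in either genotype.

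Promoter sequences of the members were set beside these values, for 32 of the 37 measured genes with an entry in the RefSeq promoter table (build GRCm38.p6, 250 bases before to 50 after the start). Each motif was searched on both strands and counted on its own. The box named TATA was searched as TATAAA. The box named after its letters was searched as CCAAT. The E2F motif was searched as TTTCCCGC, and in each further form with C or G in place of the first pair of C letters. TATAAA stood in 17 of 24 promoters of replication-dependent genes (70.8%), in 1 of 8 of variant genes and in 13.6% of all 32851 promoters of the table. CCAAT stood in 22 of 24 (91.7%), in 4 of 8 and in 37.4%. An E2F motif stood in 3 of 24 (12.5%), in 0 of 8 and in 2.26%. Among variant genes H3f3b was the one with TATAAA. The 4 promoters shown are those of the H1 and H4 genes with the highest ratios and of the 2 genes for H3.3, with the letters of both boxes, on either strand, in capitals. H1f2 lies at chr13:23738557-23738856 (+), H4c4 at chr13:23581318-23581617 (+), H3f3b at chr11:116024455-116024754 (-) and H3f3a at chr1:180813556-180813855 (-).
H1f2: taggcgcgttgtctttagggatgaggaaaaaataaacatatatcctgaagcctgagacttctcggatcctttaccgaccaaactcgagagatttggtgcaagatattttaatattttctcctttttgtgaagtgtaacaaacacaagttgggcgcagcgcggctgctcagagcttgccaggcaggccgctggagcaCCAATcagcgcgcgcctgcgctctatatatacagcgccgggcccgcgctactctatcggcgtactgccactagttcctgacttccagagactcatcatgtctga
H4c4: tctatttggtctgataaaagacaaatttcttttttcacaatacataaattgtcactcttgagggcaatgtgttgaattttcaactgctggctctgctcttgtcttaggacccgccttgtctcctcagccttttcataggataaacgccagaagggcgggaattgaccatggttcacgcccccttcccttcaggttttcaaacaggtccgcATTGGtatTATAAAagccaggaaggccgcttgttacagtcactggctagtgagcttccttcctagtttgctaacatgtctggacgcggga
H3f3b: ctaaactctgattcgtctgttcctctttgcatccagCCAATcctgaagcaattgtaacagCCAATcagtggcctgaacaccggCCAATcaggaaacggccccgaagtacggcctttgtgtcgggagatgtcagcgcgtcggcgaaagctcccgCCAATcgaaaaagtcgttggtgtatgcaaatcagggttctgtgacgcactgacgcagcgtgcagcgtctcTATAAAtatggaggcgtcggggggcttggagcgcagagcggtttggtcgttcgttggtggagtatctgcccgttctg
H3f3a: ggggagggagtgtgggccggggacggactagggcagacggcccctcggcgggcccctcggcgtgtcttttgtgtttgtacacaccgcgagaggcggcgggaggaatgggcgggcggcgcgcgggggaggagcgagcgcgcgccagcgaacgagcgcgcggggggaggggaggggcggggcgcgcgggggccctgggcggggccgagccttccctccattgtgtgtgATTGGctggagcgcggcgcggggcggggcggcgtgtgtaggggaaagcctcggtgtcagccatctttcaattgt
H3f3b holds 4 copies of CCAAT and 1 of TATAAA, and H3f3a holds 1 of CCAAT and 0 of TATAAA. A match is a description of these letters and not of binding.

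Several members have more than 1 probe, and near-identical copies may share one. Of 10 genes with several kept probes, all kept 1 sign. H4c4 ranged from 1.06 to 2.70 and H2aw from 0.29 to 1.75. H2ac10 gave 0.83 and 1.62, and H1f3 gave 2.13 and 2.88. Over all probes 16 of 49 histone probes, from 13 genes, were higher and 2 lower, beside 7.33% higher and 2.99% lower of all probes. H2bc1, H2bc12 and H2bc14 ran nearly together on the arrays, with 2.02, 2.20 and 2.25 on male pair replicate 1 and 0.56, 0.65 and 0.62 on female pair replicate 2. H3c4, H3c14 and H3f3b did so too. Among the H4 genes, H4c4, H4c6 and H4c14 had 3.96, 3.88 and 3.69 on male pair replicate 1. They had 1.76, 1.62 and 1.37 on female pair replicate 2. H4c1 and H4f16 lay lower, with 3.06 and 2.97 on the first of these arrays and 1.07 and 1.00 on the second. H2ac1, H2ac10 and H2ac20 also lay close, with 0.99, 1.10 and 0.82 on male pair replicate 1 and 0.56, 0.68 and 0.59 on female pair replicate 2. Probe sequences were not used here, so whether such probes read several transcripts or 1 was not tested, and a value given for 1 copy is uncertain as to the copy.

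The ratios of the histone genes were larger in the male pair. This held for 32 of 37 members and for 26 of 28 replication-dependent genes, beside 47.7% of all genes measured. That share covers ratios of both signs, while most members lay above 0. Log2 ratios also spread wider on the male pair arrays (standard deviation 0.70 and 0.63) than on the female pair arrays (0.52 and 0.48). The median of the replication-dependent genes was 1.67 (male pair) and 0.71 (female pair), and that of the variant genes 0.37 and 0.33. H2ac13 (1.40 and 1.37), H2ac18 (0.13 and 0.15) and H2az1 (0.37 and 0.44) had nearly equal ratios in the male and the female pair. Across the 37 genes the pairs correlated at 0.886 (Pearson), against 0.839 over all genes. With 1 pair of each kind, a difference between the pairs could not be tested.

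The genes that accompany histone synthesis were read from lists chosen with earlier results of these data known. Of 39 DNA replication genes 20 rose and 1 fell, with a median of 0.80, or 0.73 in the male pair alone and 0.80 in the female pair alone. The helicase subunit genes Mcm6 (3.45 ± 0.26) and Mcm5 (2.46 ± 0.15) led them, and the 1 that fell was Mcm10 (-1.48 ± 0.20). Of 30 mitosis genes 28 rose, with a median of 2.63, and 2.40 and 2.71 in the pairs, led by Cdc20 (5.05 ± 0.22). Only 14 of these 30 were above background on all WT arrays. Another 9 were above it on no WT array and so passed the filter through HepKO alone, which limits their ratios and these medians. The male pair had the larger ratio in 15 of the 39 and in 6 of the 30. Histone genes and mitosis genes thus had their larger medians in different pairs.

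Histone mRNA processing and transcription genes were mostly not called. Of 19 measured, 2 rose and none fell (median 0.25), a share near the 12% of all named genes that rose. These were the E cyclin genes Ccne1 (1.86 ± 0.20) and Ccne2 (0.84 ± 0.14). Slbp, whose product binds the histone stem-loop, had a ratio of 0.60 ± 0.14 (adjusted p = 0.0673), and Cpsf2, a cleavage factor subunit, 0.72 ± 0.17. Of 24 genes for histone chaperones and deposition, 8 rose and 2 fell (median 0.45). Asf1b, which carries H3 with H4, had ratios of 2.19, 1.90, 2.38 and 2.22 and a mean of 2.17 ± 0.16. Chaf1a (1.74 ± 0.16) and Chaf1b (1.43 ± 0.14), subunits of the replication-coupled assembly factor, rose with it. Daxx, a chaperone of H3.3, rose by 2.27 ± 0.35, with 2.99 and 2.86 in the male and 1.61 and 1.62 in the female pair. The 2 that fell were Nap1l1 (-0.98 ± 0.18) and Rbbp4 (-0.70 ± 0.14).

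**Figure D3:**
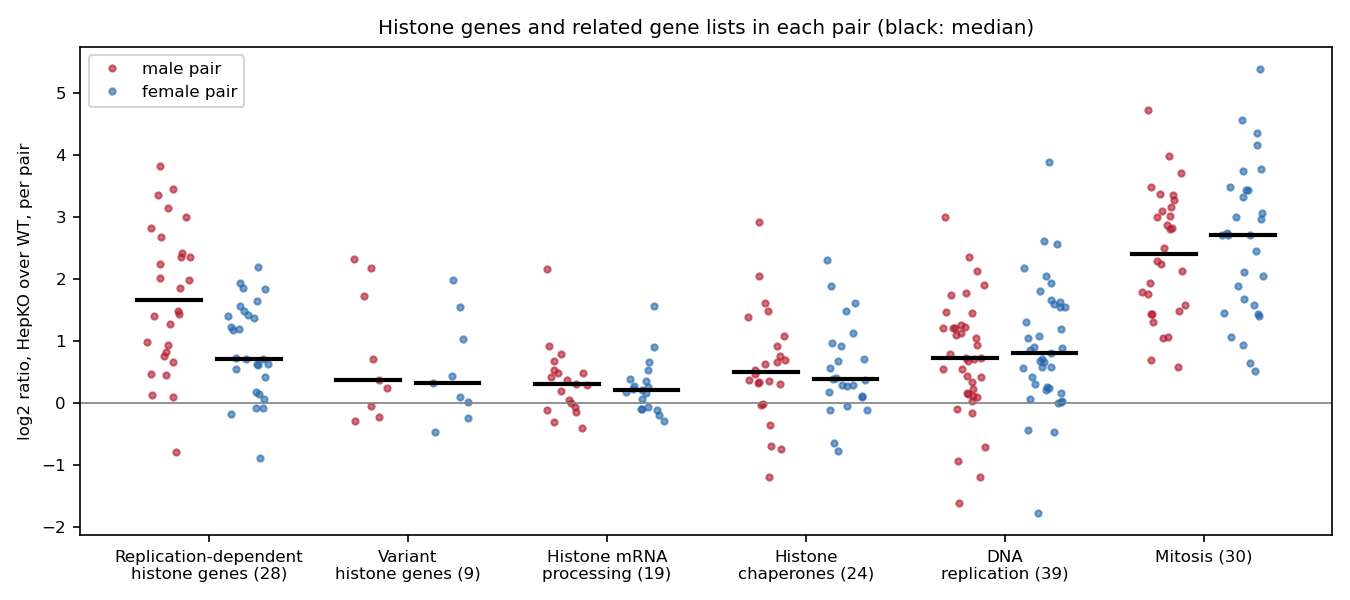
Log2 ratio of HepKO over WT per pair (y axis) for the measured genes of 6 lists (x axis, number of genes in brackets); each point is a gene in the male or the female pair, spread sideways at random, and black bars are medians. The replication-dependent histone genes have their medians at 1.67 (male pair) and 0.71 (female pair), while the mitosis genes have 2.40 and 2.71. Of the mitosis genes, 9 were above background on no WT array.

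Most macrophage, endothelial and lymphocyte markers rose too, while erythroid markers were mixed. The male pair had the larger ratio in 13 of 17 macrophage and 12 of 17 lymphocyte markers, but in 3 of 20 endothelial ones. Of 17 macrophage markers 14 rose (median 1.61), and their summed intensity was 82546 and 87645 in HepKO, against 10940 and 24781 in WT. Of 20 endothelial markers 14 rose (median 1.15), with sums of 29253 and 28218 in HepKO, against 14110 and 10578 in WT. Of 17 measured lymphocyte markers 10 rose (median 0.99). Sums over the 18 with values, dim ones included, were 5023 and 3552 in HepKO, against 1438 and 1545 in WT. Lymphocyte markers above background on no WT array included Cd2, Cd5, Cd79a, Gzma, Klrb1c, Ms4a1 and Ncr1. Of these, Cd79a was above it on no HepKO array either and was not measured. Of 6 measured erythroid markers 2 rose and 1 fell. The 2 that rose were globin genes (4.08 ± 0.18 and 3.27 ± 0.16), and the 1 that fell had -0.90 ± 0.14. Sums over the 12 with values, dim ones included, were 6758 and 25443 in HepKO, against 2666 and 9661 in WT. Each sum adds the same probes in every mouse, and bright probes weigh most in it. Erythroid markers above background on no array included Gata1, Epb42, Ermap and Rhag. Hepatocyte markers had a median of 0.011, with 1 higher and 1 lower of 15. The part of these cells in the histone ratios was not tested, and in such bulk RNA more cells of a type and more RNA per cell cannot be told apart.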

How the data were processed

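Per the file headers, scanned images went through Agilent Feature Extraction 10.2.1.3. The deposited intensity values used are the mean of each spot and the median of its local background. The deposited log10 ratios, per the file headers background-subtracted and dye-normalized, and the authors' value table, which holds the same log10 ratios turned to HepKO over WT, were alternatives. No build is stated for gene names, and probes were named by RefSeq accession through a table of GRCm38.p6 (22951 of 41174 probes).

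Spots flagged as outliers, or with a non-uniform background, were left out (178 to 260 per array). Signals were corrected by normexp (offset 50) and loess-normalized in limma 3.58.1 under R 4.3.3, with control spots at weight 0. Spots of a probe and the 2 dye orientations were averaged. A probe was kept if well above background on both arrays of a pair in 1 genotype (22844 probes), and of several kept probes the brightest represented its gene. The test was limma with eBayes on 2 pair values (1 residual and 3.12 prior degrees of freedom), two-sided, with Benjamini-Hochberg adjustment. The p-values rest on the spread between 2 pairs of mice, moderated towards a variance pooled over all genes. That pooled part holds more degrees of freedom than the gene's own spread. Intensities were Aquantile-normalized after loess. No spot was saturated.

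The members and lists were chosen with earlier results of these data known. All measured members may be named, and of the other lists the 2 to 4 genes with the largest absolute ratio. Mcm10, Nap1l1 and Rbbp4 were named after their values were seen, as the fallen genes of their lists. Alternatives covered normalization, dim probes, dye, left-out arrays and variance moderation. Some markers of other cell types are not reported here by name.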

Additional observations from a re-analysis of the deposited data

Results flagged for a closer look

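In 3 measured histone genes both arrays of one pair lay above 0 and both of the other below, which was not tested, since each pair is 1 replicate. H2ac8 had a log2 ratio of 0.45 (male pair) and -0.090 (female pair). Its signals lay near background, above it on 2 of 4 HepKO and 1 of 4 WT arrays. H2aw had 0.67 (male pair) and -0.076 (female pair). Its second probe was above 0 on all 4 arrays (2.45, 2.43, 1.12 and 1.01). H3f3a had -0.23 (male pair) and 0.018 (female pair). A further H3f3a probe split alike (-0.30 and 0.027). The remaining H3f3a probe changed sign with the dye orientation instead (0.15 and -0.42 in the male pair, 0.33 and -0.28 in the female pair). None of these genes passed the test.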

How the results depend on the processing

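With 2 pairs, and calls near the threshold, the counts depend on the processing. Neither normexp on all spots nor dropping the dim-probe filter left a call in limma (0 genes, with lowest adjusted p-values of 0.0722 and 0.0689), where 1947 and 3019 genes were higher and 1064 and 1619 lower at an unadjusted p under 0.05; histone genes higher at that level were 21 and 21 (18 and 16 replication-dependent, 3 and 5 variant), and lower ones 1 and 2. With all 4 arrays and the pair as a random block, 2685 genes were higher and 1394 lower, with 25 histone genes higher, 21 of them replication-dependent. That setting draws on the same 2 pairs of extracts and adds no pair. The arrays with HepKO in Cy3 alone gave 683 lower genes. Leaving out 1 array gave 920 to 1572 higher and 202 to 572 lower genes, with 9 to 19 histone genes higher, 0 to 1 lower, 7 to 16 replication-dependent ones higher and 2 to 3 variant ones. Fewest of all came without male pair replicate 2. The single lower histone gene became 0 with median centring and with HepKO in Cy5 alone, and 2 with the Feature Extraction log ratio, with the authors' value table and with background population outliers left out too, 1 of them a variant gene in each (H2al2a with the log ratio and the value table, H1f0 otherwise). This last setting was added after seeing the data. It left 32 histone genes tested, with 11 higher, 1 of them a variant gene. Counting the 32 genes above background in WT on all 4 arrays, also added later, gave 15 higher. Median centring moved the median of all genes to 0.18 and that of the histone genes to 1.16. H1f4 changed sign with median centring (0.16), on arrays with HepKO in Cy5 alone (0.25), and when 1 array was left out (-0.27 to 0.19, above 0 without male pair replicate 2 or female pair replicate 2). No other measured member changed sign. No paired analysis was possible beyond the test itself, which is already one, because each ratio sets a HepKO mouse against its partner and the replicate numbers only name dye orientations. Signals near background limit H1f10, H2ac4, H2ac8 and H3c1, which passed the filter through HepKO alone. WT signals were also low for H1f1 (78.4 and 92.1) and H2bu2 (93.8 and 80.9), though above background on all 4 WT arrays. H1f5 (82.1 and 108 in WT) was above it on 3 of 4.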
